A study of Homo sapiens with 10 samples.

Results

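Matrix metalloproteinases (MMPs) and their tissue inhibitors (TIMPs) were followed in MRC5 cells, a human lung fibroblast line, as a set of 10 genes chosen by name: MMP1, MMP2, MMP3, MMP10, MMP11, MMP14, MMP19, TIMP1, TIMP2 and TIMP3. Of these, 9 were found among the 14054 genes of the count table and all 9 passed the filter on low counts, while MMP3 was not analysed here. The study gave MRC5 cells medium conditioned by A549 cells, an adenocarcinoma line of the human lung used as a stand-in for alveolar epithelium. In 5 libraries (static 1, 3, 5, 7 and 9) the A549 cells had not been stretched, and in 5 (stretch 2, 4, 6, 8 and 10) they had. Both groups thus received A549-conditioned medium, and no library of MRC5 cells in fresh medium was analysed here. The time in conditioned medium is 24 hours in the sample descriptions and 6 hours in the series design, so it is not settled. The labels do not state whether each library had its own culture, and the spread on which the p-values rest may therefore be technical.

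MMPs are zinc-dependent endopeptidases that are made as inactive precursors and together can cleave most components of the extracellular matrix. TIMPs bind the active site of the mature enzymes and block it, so the balance of proteases and inhibitors sets how much matrix is cleaved around a fibroblast. In the lung, fibroblasts are a main source of several of these enzymes and inhibitors, and their balance is studied in fibrosis, emphysema and wound repair. Transcript levels do not report precursor cleavage or inhibitor binding.

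Libraries held 4231653 to 8455073 counts, and a floor of 3 counts corresponded to 0.354 to 0.679 CPM (counts scaled to library size, with TMM factors). No pair of libraries within a group was close enough to be a repeat deposit (chi-square over its degrees of freedom, 5.75 to 23.0). The fibroblast identity of the cells was checked on 10 markers, all present, whose summed level was 16227 to 18194 CPM with static and 14391 to 18886 CPM with stretch medium. Of 15 epithelial and A549 markers, 7 were analysed, with summed levels of 26.3 to 34.3 and 27.4 to 34.6 CPM. Counts in a library were 53 to 109 for KRT19, 26 to 73 for CLDN4, 16 to 47 for MUC1 and 11 to 25 for EPCAM. CLDN7 had 4 to 23 counts, CLDN3 at most 8 and CDH1, the epithelial cadherin, at most 4. The 4 leukocyte markers analysed had at most 19 counts each. Of 4 endothelial markers, TEK, an angiopoietin receptor, had 204 to 459 counts, KDR, a VEGF receptor, had 15 to 59, PECAM1 at most 19 and VWF at most 4. Library stretch 2 stood apart in the cytoskeletal gene VIM, at 1579.7 CPM against 4091 to 4328 CPM in the other stretch libraries.

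No MMP or TIMP gene passed the test over all genes, and the 3 with the smallest p-values, the collagenase gene MMP1, the membrane-anchored protease gene MMP14 and the inhibitor gene TIMP3, were at higher levels with stretch medium. In edgeR's quasi-likelihood test with Benjamini-Hochberg adjustment, 0 of the 9 had an adjusted p under 0.05, as did 0% of the 10968 genes tested. At an unadjusted p under 0.05 there were 3 of 9, all higher with stretch medium, against a background of 8.08% of all genes in that direction, and 0 of 9 lower, against 8.37%. DESeq2 called 0 of the 7 members to which it gave an adjusted p, with a background of 2.86%. With limma-voom 0 of 9 members were called, and only 1 gene over all 10968 tested. Of the 9 log2 fold changes (stretch minus static medium), 5 lay above 0 and 4 below, and their median was 0.022 against 0.00035 over all genes tested. The CPM of the groups overlapped for each of the 9, while 3.72% of all genes had groups free of overlap and 1.74% had them free of overlap and higher with stretch medium, 1.98% lower. In bulk RNA, fewer cells of a type and less RNA per cell cannot be told apart.

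**Figure D1:**
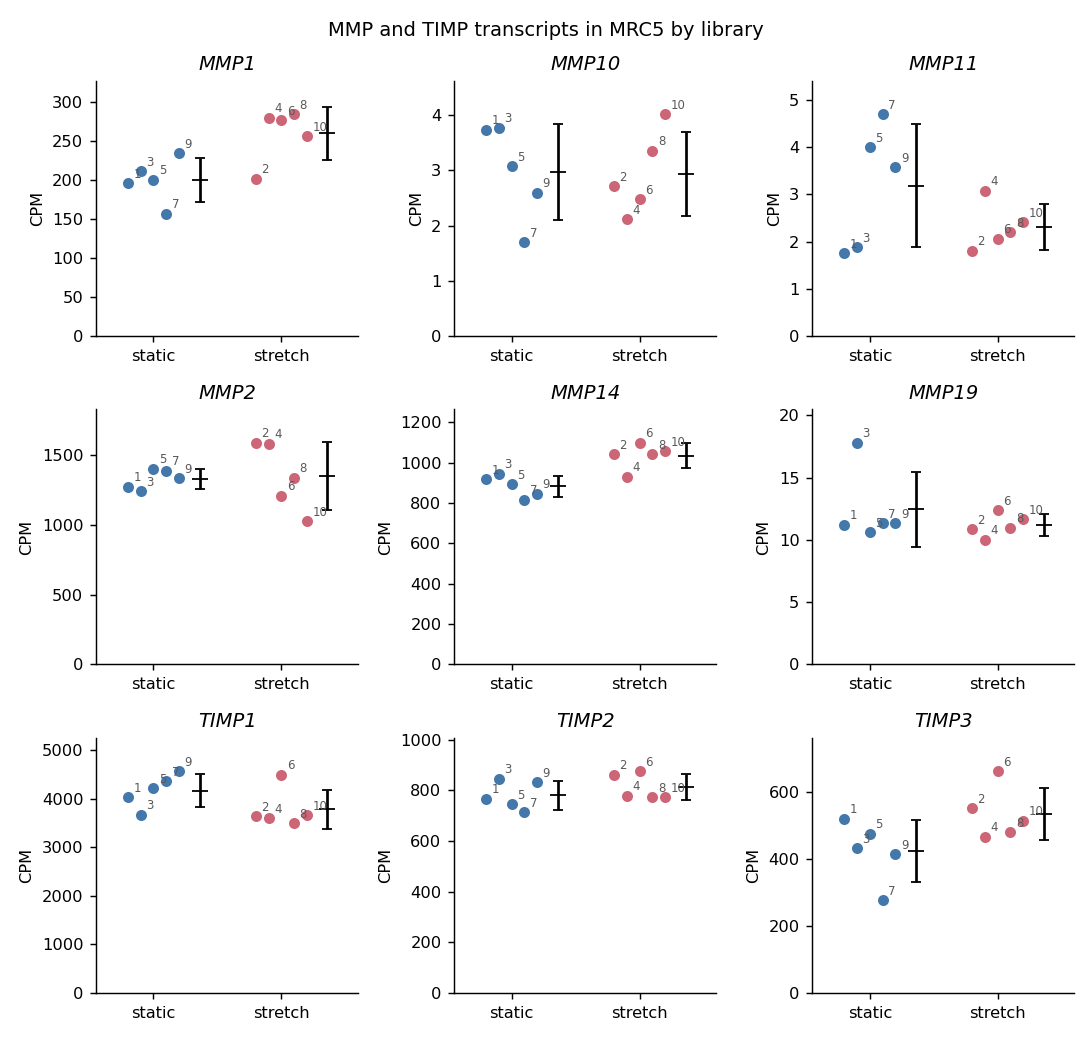
Level of each of the 9 MMP and TIMP genes in CPM (vertical axes, from 0) in the 5 static and 5 stretch libraries, with points numbered as the libraries are and a bar for the mean and SD of each group. For MMP1 and MMP14, 4 of the 5 stretch points lie above the highest static point, and for TIMP1, 4 of the 5 lie below the lowest static point.

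The upstream sequences of 4 members are shown because regulation of this family is usually described through a few short promoter elements. RefSeq (GRCh38.p14) entries were matched for 5 of the 9 members: MMP10, MMP11, MMP14, TIMP1 and TIMP3. MMP1, MMP2, MMP19 and TIMP2 had no entry. Each run holds the 250 bases before the RefSeq start, 5′ to 3′ on the gene's strand. Capitals mark matches, on either strand, to the letters TGANTCA (the AP-1 element), TGAGTAA (an AP-1-like heptamer), GGGCGG (the GC box bound by Sp1-type factors) or TATAAA (the TATA box). No match overlapped a match to another of the 4 motifs.
MMP10: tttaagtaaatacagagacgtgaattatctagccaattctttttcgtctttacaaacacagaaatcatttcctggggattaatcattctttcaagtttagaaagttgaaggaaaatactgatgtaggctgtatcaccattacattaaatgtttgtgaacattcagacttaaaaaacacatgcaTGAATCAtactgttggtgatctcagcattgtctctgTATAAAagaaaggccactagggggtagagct
MMP14: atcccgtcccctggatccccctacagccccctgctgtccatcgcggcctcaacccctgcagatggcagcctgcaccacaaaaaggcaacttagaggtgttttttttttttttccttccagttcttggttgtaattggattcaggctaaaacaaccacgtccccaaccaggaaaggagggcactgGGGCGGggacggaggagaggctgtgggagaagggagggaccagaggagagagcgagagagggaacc
TIMP1: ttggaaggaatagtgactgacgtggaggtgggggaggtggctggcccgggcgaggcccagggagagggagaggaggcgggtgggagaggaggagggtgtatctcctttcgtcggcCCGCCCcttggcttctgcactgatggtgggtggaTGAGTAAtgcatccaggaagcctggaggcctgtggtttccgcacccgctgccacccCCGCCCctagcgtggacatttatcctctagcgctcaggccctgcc
TIMP3: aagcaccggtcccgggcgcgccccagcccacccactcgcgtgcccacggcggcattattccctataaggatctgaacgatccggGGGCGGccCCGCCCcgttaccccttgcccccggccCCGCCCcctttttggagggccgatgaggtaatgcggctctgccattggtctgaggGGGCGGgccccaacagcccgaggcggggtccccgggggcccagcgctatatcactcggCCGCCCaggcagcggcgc
The MMP10 run is chr11:102780629-102780878 (minus strand), that of MMP14 chr14:22836335-22836584 (plus strand), that of TIMP1 chrX:47582186-47582435 (plus strand) and that of TIMP3 chr22:32801455-32801704 (plus strand). MMP10 held 1 AP-1 match, from 67 to 61 bases before the start, and 1 TATA match, from 31 to 26 bases before it. MMP14 held 1 GC box, TIMP3 held 5, and TIMP1 held 2 beside the heptamer TGAGTAA at 101 to 95 bases before its start. The run of MMP11, not shown, held 3 GC boxes and lies within that gene in the GENCODE annotation. In the GENCODE annotation TIMP1 begins at 47582313, MMP14 at 22836557 and TIMP3 at 32801701, so the last part of these runs lies within the gene. For TIMP1 that part holds the heptamer and the nearer of its 2 GC boxes. Among 35116 RefSeq promoter windows of the same length, 6.57% held the AP-1 letters, 2.21% the heptamer, 42.6% a GC box and 10.7% the TATA letters. The heptamer was searched for as the TIMP1 variant of the AP-1 element. Its match in TIMP1 was thus set beforehand, and the share of windows with it lends that match no weight. A match describes letters only and was not tested for binding.

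MMP1 encodes interstitial collagenase, which opens the triple helix of fibrillar collagens (chromosome 11, 102789920 to 102798160, minus strand). With static medium it was at 196, 211, 200.2, 157 and 234 CPM in libraries 1, 3, 5, 7 and 9. With stretch medium it was at 202, 279.6, 276, 284 and 256 CPM in libraries 2, 4, 6, 8 and 10. Stretch 2 lay among the static libraries and the other 4 stretch libraries lay above all of them. The group means were 199.7 ± 28.2 and 259 ± 34.1 CPM (SD, n = 5 each), a 1.30-fold difference in the fit. The log2 fold change was 0.38 ± 0.12 (standard error), its 95% interval 0.12 to 0.64 and the adjusted p 0.159 in edgeR. DESeq2 gave an adjusted p of 0.0713. Without stretch 2 the estimate was 0.46 (adjusted p = 0.217), and without static 7, the lowest library, it was 0.30 (adjusted p = 0.309).

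The stromelysin genes analysed here, MMP10 and MMP11, were sparsely counted. MMP10 encodes stromelysin-2, which cleaves proteoglycans and fibronectin and can activate other MMP precursors, and lies beside MMP1 (chromosome 11, 102770503 to 102780628). It had 17, 32, 20, 13 and 16 counts in static 1, 3, 5, 7 and 9. Stretch 2, 4, 6, 8 and 10 gave 12, 11, 18, 26 and 20. The group ranges coincided almost fully, and the interval of the log2 fold change ran from -0.59 to 0.58 around an estimate of -0.0073 (edgeR adjusted p = 0.990), which was 0.015 without stretch 2. The counts are compatible with any difference within these bounds, and the smallest difference that could be detected was not computed. MMP1 and MMP10 did not vary together over the 10 libraries in a way the test could separate from 0. Pearson's r of their log2 CPM was 0.23 (permutation p = 0.526) and Spearman's rho 0.042 (permutation p = 0.919), with 1 relation computed. Without static 7 and stretch 8, the libraries farthest from the median of MMP1, r was -0.49, and with each group centred on its mean it was 0.33.

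MMP11 encodes stromelysin-3, which is activated inside the cell by furin-type convertases and was first described in stromal cells around tumours (chromosome 22, 23768226 to 23784316). Its counts were 8, 16, 26, 36 and 22 with static medium and 8, 16, 15, 17 and 12 with stretch medium. Static 5, 7 and 9 stood above each stretch library in counts, while static 1 and 3 did not. The means were 3.18 ± 1.31 and 2.31 ± 0.48 CPM, and the log2 fold change of -0.48 had an interval of -1.12 to 0.17 (edgeR adjusted p = 0.452). Without static 7 it was -0.28. CHCHD10 overlaps MMP11 on the opposite strand at 24.4 and 19.2 CPM, and the use of strand is not given in the sources used here, so the level of MMP11 is uncertain.

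MMP2 encodes gelatinase A, which degrades denatured and basement membrane collagen and is abundant in fibroblasts (chromosome 16, 55389700 to 55506691). It was at 1273, 1242, 1403, 1389 and 1335 CPM in static 1, 3, 5, 7 and 9. The stretch libraries 2, 4, 6, 8 and 10 were at 1588, 1582, 1208, 1339 and 1025 CPM. Stretch 2 and 4 lay above every static library and stretch 6 and 10 below every one. The coefficient of variation was 5.29% with static and 18.03% with stretch medium, a difference in spread that was not tested. The means were 1328 ± 70.2 and 1349 ± 243 CPM, with a log2 fold change of 0.022 and an interval of -0.23 to 0.27 (edgeR adjusted p = 0.946). Without stretch 2 or without stretch 4 the estimate was -0.045.

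MMP14 encodes membrane-type 1 MMP, a collagenase of the cell surface that also activates the MMP2 precursor with the help of TIMP2 (chromosome 14, 22836557 to 22849027). Static libraries 1, 3, 5, 7 and 9 were at 918, 945, 892, 817 and 847 CPM. Stretch libraries 2, 4, 6, 8 and 10 were at 1043, 930.3, 1099, 1043 and 1057 CPM. Stretch 4 lay within the static range and the other 4 above it. The spread was small in both groups, with coefficients of variation of 5.88% and 6.05%. Means of 884 ± 51.9 and 1034 ± 62.6 CPM (SD, n = 5 each) gave a 1.17-fold difference. The log2 difference was 0.23 ± 0.089 (standard error), its 95% interval 0.038 to 0.42, the unadjusted p 0.0214 and the adjusted p 0.231 in edgeR. MMP19 encodes a secreted protease of basement membrane proteins (chromosome 12, 55835433 to 55842966). It was at 12.5 ± 3.0 and 11.2 ± 0.89 CPM, with a log2 fold change of -0.16 and an interval of -0.52 to 0.196 (edgeR adjusted p = 0.663). The static mean rested on static 3, at 17.8 CPM against 10.6 to 11.4 CPM in the other 4, and without static 3 the estimate was 0.0050.

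Among the inhibitors, the mean level of TIMP3 was higher with stretch medium, that of TIMP1 lower and that of TIMP2 close to equal, none past the adjusted threshold. TIMP1 encodes a secreted inhibitor of most soluble MMPs that binds MMP14 only weakly (chromosome X, 47582313 to 47586789). It was at 4033, 3669, 4209, 4353 and 4565 CPM in static 1, 3, 5, 7 and 9. In stretch 2, 4, 6, 8 and 10 it was at 3640.0, 3600.4, 4491, 3497 and 3657 CPM. Stretch 6 lay among the upper static libraries and the other 4 below all static libraries. The means were 4166 ± 339 and 3777 ± 404 CPM, and the log2 difference of -0.14 had a 95% interval from -0.34 to 0.061 (edgeR adjusted p = 0.479).

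TIMP2 encodes the inhibitor that both blocks MMP2 and, at the cell surface, takes part in its activation by MMP14 (chromosome 17, 78852977 to 78925387). It was at 766, 845, 746, 714 and 831 CPM with static medium and at 861, 778, 876, 773 and 774 CPM with stretch medium. The groups overlapped over most of their range. The log2 fold change of 0.058 had an interval of -0.14 to 0.25 (edgeR adjusted p = 0.795), and it was 0.028 without static 7.

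TIMP3 encodes an inhibitor that stays bound to the matrix and also blocks ADAM17 and aggrecanases (chromosome 22, 32801701 to 32863043). It was at 521, 432, 476, 277 and 415 CPM in static 1, 3, 5, 7 and 9. It was at 552, 466, 662, 479.6 and 515 CPM in stretch 2, 4, 6, 8 and 10. Stretch 2 and 6 lay above every static library, and static 7 lay far below the other libraries of its group. The means were 424 ± 92.0 and 535 ± 78.6 CPM (SD, n = 5 each), a 1.26-fold difference. The log2 difference was 0.34 ± 0.15 (standard error), its 95% interval 0.023 to 0.65, the unadjusted p 0.0367 and the adjusted p 0.275 in edgeR. Without static 7 it was 0.22 (adjusted p = 0.478). TIMP1 and TIMP3 lie within the synapsin genes SYN1 and SYN3 on the opposite strand, which were at mean levels of at most 0.842 and 0.155 CPM.

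**Figure D2:**
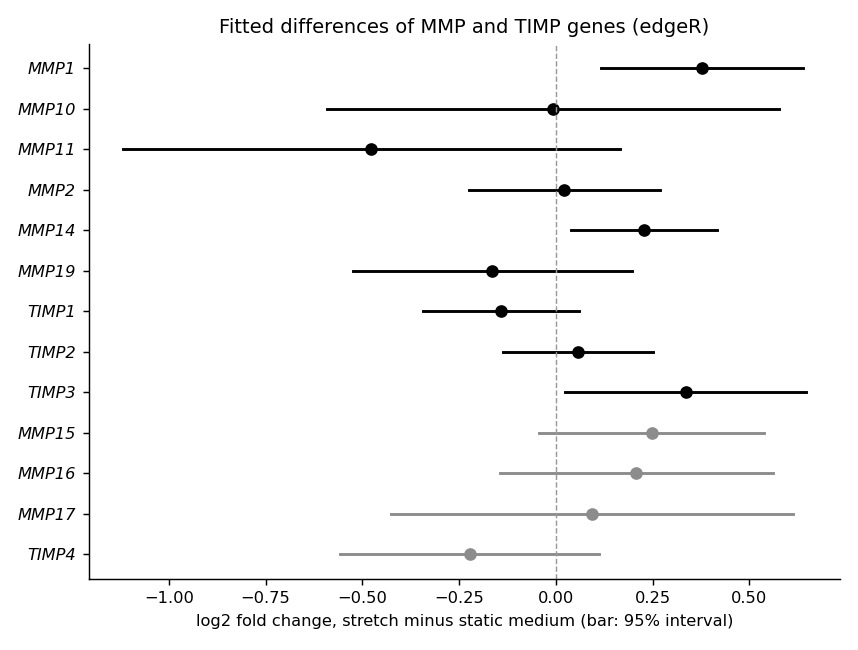
Log2 fold change (horizontal axis, stretch minus static medium) of the 9 MMP and TIMP genes in black and of 4 further family genes in grey, with 95% intervals from edgeR. The intervals of MMP1 (0.12 to 0.64), MMP14 (0.038 to 0.42) and TIMP3 (0.023 to 0.65) lie above 0 and those of the other genes span it.

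**Figure D3:**
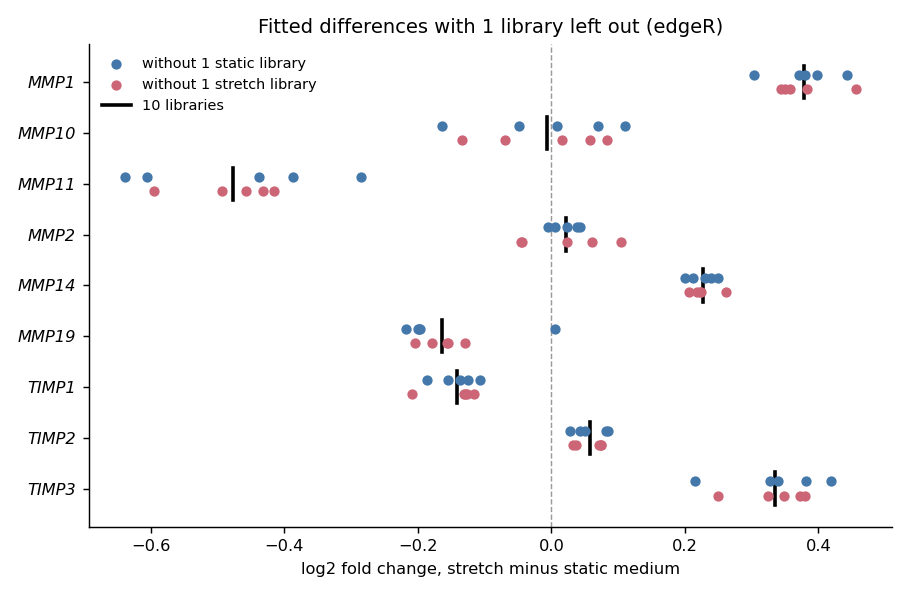
Log2 fold change (horizontal axis) of each gene over all 10 libraries (black line) and with each static (blue) or stretch (red) library left out in turn. MMP1 stays between 0.30 and 0.46 and MMP14 between 0.20 and 0.26, while MMP10, MMP2 and MMP19 have points on both sides of 0.

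Protease to inhibitor ratios were formed within each library, which removes the scaling between libraries. The assay counts amplicons, whose yield differs between genes, so a ratio is compared across libraries only and its size says nothing of the molar balance. Of 6 pairs chosen for known interactions, 5 were computed, since MMP3 was not analysed here. The ratio of MMP1 to TIMP1 was 4.86, 5.76, 4.76, 3.60 and 5.13 MMP1 counts per 100 TIMP1 counts in static 1, 3, 5, 7 and 9. It was 5.54, 7.77, 6.15, 8.12 and 7.0 in stretch 2, 4, 6, 8 and 10. Only stretch 2 fell within the static range. Means were 4.82 ± 0.78 and 6.92 ± 1.08, and the difference in mean log2 ratio was 0.52 (two-sided exact permutation over the libraries, p = 0.0159, or 0.0595 after adjustment over the 5 ratios). The adjusted value misses 0.05 and was 0.0595 to 0.119 with a library left out, and the smallest p this design can give is 0.00794.

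The ratio of MMP14 to TIMP2, the pair that assembles on the cell surface around the MMP2 precursor, was 119.8, 112, 119.6, 114 and 102 per 100 TIMP2 counts with static medium. It was 121, 119.5, 126, 135 and 137 with stretch medium. Stretch 4 lay just within the static range and the other 4 above it. The difference in mean log2 ratio was 0.17 (two-sided exact permutation p of 0.0238, or 0.0595 after adjustment). With a library left out, the adjusted p of the exact permutation test ran from 0.0397 (without stretch 4, difference 0.19) to 0.139 (without static 3 or static 9, the latter with a difference of 0.13).

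The groups overlapped for the other 3 ratios. MMP2 to TIMP2 stood at 171 ± 19.7 and 166 ± 30.4 per 100 (difference in mean log2 ratio -0.055, exact permutation p = 0.706, adjusted p = 0.706). MMP14 to TIMP3 stood at 216 ± 46.8 and 195 ± 19.4 per 100 (difference -0.13, exact permutation p = 0.476, adjusted p = 0.706). MMP10 to TIMP1, which rests on few MMP10 counts, stood at 0.0729 ± 0.0260 and 0.0789 ± 0.0237 per 100 (difference 0.14, exact permutation p = 0.627, adjusted p = 0.706). Without static 7 the difference for MMP14 to TIMP3 was -0.0099 and that for MMP10 to TIMP1 was -0.040.

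Over all 18 pairs of 6 proteases and 3 inhibitors, given as a description with no test, the count in each direction differed with the inhibitor in the denominator. Against TIMP1, 5 of 6 proteases had a mean log2 ratio that was higher with stretch medium, the exception being MMP11. For MMP19 that difference was only 0.014, with 0.249 to 0.485 counts per 100 in static and 0.276 to 0.319 in stretch libraries. Against TIMP2, 2 of 6 proteases were higher. Against TIMP3, 1 of 6 was, with differences from -0.695 for MMP11 to 0.024 for MMP1. The ratios to 1 inhibitor share its value in each library, and of all other genes tested 71.9% had a higher mean log2 ratio to TIMP1 with stretch medium, 40.2% to TIMP2 and 7.78% to TIMP3. No ratio of the 18 was free of overlap between the groups. Of the 10967 other genes tested, 3.64% had a ratio to TIMP1 without overlap, 3.36% in the higher direction. The 6 protease genes together gave 45.4 ± 2.58 counts per 100 TIMP counts with static and 52.3 ± 6.55 with stretch medium, where stretch 6 (43.1) and 10 (47.6) lay within the static range of 41.9 to 49.0. MMP2 and MMP14 made up 88.4% to 92.7% of the protease sum in the 10 libraries, so it says little of the other 4.

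The make-up of the inhibitor counts is given as a description. TIMP1 made up 77.5% ± 2.77 of the counts of the 3 inhibitors in the static group and 73.7% ± 0.98 in the stretch group (SD over 5 libraries). TIMP3 made up 7.92% ± 1.80 and 10.4% ± 0.57. The ratio of TIMP3 to TIMP1 was 12.9, 11.8, 11.3, 6.37 and 9.09 per 100 in static 1, 3, 5, 7 and 9. It was 15.2, 12.95, 14.8, 13.7 and 14.1 in stretch 2, 4, 6, 8 and 10. These groups did not overlap, though the highest static (12.92) and the lowest stretch library (12.95) nearly met, and 3.36% of all other genes tested had a ratio to TIMP1 that was higher without overlap. This ratio was picked after its values were seen and has no test.

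**Figure D4:**
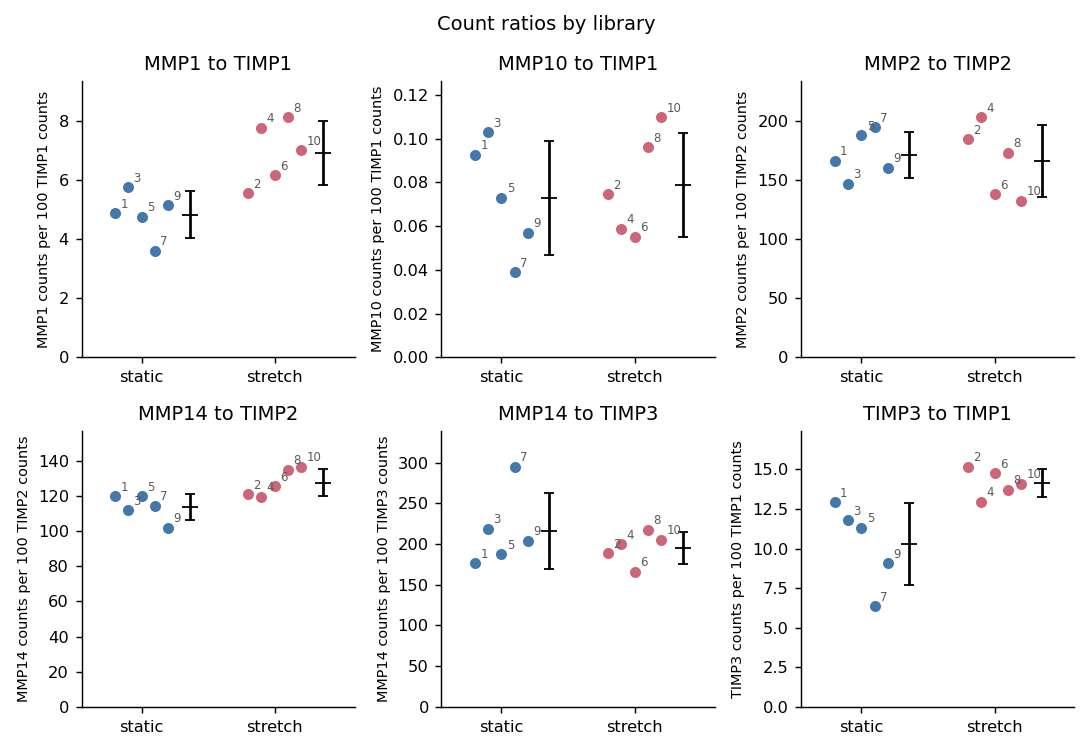
Counts of the first gene per 100 counts of the second (vertical axes, from 0) in each static and stretch library, numbered, with the mean and SD of each group. MMP1 to TIMP1 has 1 stretch library (5.54) inside the static range, and in the panel of TIMP3 to TIMP1 the stretch libraries begin at 12.95, just above the highest static one.

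In all, 8 further genes of the family were analysed, of which 4 passed the filter on low counts. The membrane-type genes MMP15, MMP16 and MMP17 had log2 fold changes of 0.25 (interval -0.042 to 0.54), 0.21 and 0.093, and TIMP4, the inhibitor gene nested in SYN2, had -0.22, with adjusted p of 0.383 to 0.885 in edgeR. MMP15 (chromosome 16, 58025566 to 58046901) averaged 21.2 ± 2.98 and 25.2 ± 2.04 CPM, and its estimate was 0.16 without static 7. MMP17 was at -0.020 without stretch 2. TIMP4 (chromosome 3, 12153051 to 12159351) averaged 9.92 ± 0.52 and 8.49 ± 1.25 CPM. The other 4 were at the edge of detection. The macrophage elastase gene MMP12 had at most 5 counts in a library, MMP24 at most 6 and MMP25 at most 10. MMP23B had 11 to 19 counts with static and 1 to 11 with stretch medium. With no filter its log2 fold change was -0.75 ± 0.37 (edgeR adjusted p = 0.373). MMP23B has a near-identical neighbouring copy, so its counts are uncertain.

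Genes that act on this system were described from 4 lists, in none of which a gene passed the adjusted threshold in edgeR. Of 16 genes of MMP activation and surface control, with a median log2 fold change of 0.078, 3 were higher and 2 lower at an unadjusted p under 0.05, where 8.08% and 8.37% of all genes were. FURIN, the convertase that activates the MMP14 and MMP11 precursors (chromosome 15, 90868592 to 90883458), averaged 73.2 ± 12.3 and 96.0 ± 12.5 CPM in the static and stretch groups. The log2 difference was 0.39 ± 0.13 (edgeR adjusted p = 0.167). CAV1, the caveolar coat protein involved in the uptake of MMP14 (chromosome 7, 116524785 to 116561184), was at 14.5 ± 3.10 and 9.43 ± 2.75 CPM, or -0.61 ± 0.21 (adjusted p = 0.176 in edgeR). The others, named after their values were seen, were BSG, which encodes an inducer of MMPs on the cell surface (0.30), ITGB3 (0.61) and ITGAV (-0.25), the chains of the vitronectin receptor. The plasminogen activator gene PLAU, its receptor PLAUR and the membrane inhibitor RECK were at 0.049, 0.15 and 0.031, with unadjusted p of 0.746, 0.124 and 0.860 in edgeR. The groups did not overlap for PLAUR, higher with stretch medium (1 of 16, against 1.74% of all genes), and for ITGAV, lower (1 of 16, against 1.98%). PLAU, PLAUR and RECK were also picked once the values were known.

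Of 13 transcription factor genes tested, whose products bind MMP promoters, 2 were higher and 3 lower at an unadjusted p under 0.05. Of all genes, 8.08% and 8.37% were, and the median of the 13 was -0.10. The groups did not overlap for CEBPB and FOSL2, both lower with stretch medium (2 of 13, against 1.98% of all genes). CEBPB was at 4.77 ± 1.72 and 1.13 ± 0.85 CPM, with a log2 fold change of -2.04 ± 0.40 (edgeR adjusted p = 0.0840). Its counts were 22 to 46 with static and 1 to 13 with stretch medium, the latter near the counting floor. With a library left out the adjusted p ran from 0.0270 (without stretch 4) to 0.217 (without stretch 2). AP-1, the dimer of Fos and Jun proteins, has its elements in many MMP promoters. Its subunit genes had estimates on both sides of 0. FOSL2 (chromosome 2, 28392448 to 28417312) was at 12.2 ± 1.23 and 8.38 ± 0.96 CPM, or -0.55 ± 0.15, without overlap of the groups (edgeR adjusted p = 0.129). JUNB was at -0.24 and JUND at 0.62, and FOSL1 at 0.16 with an unadjusted p of 0.301. ETS2, of the ETS family that binds beside AP-1, was at 0.31. DESeq2 called 1 gene of this list, JUND (adjusted p = 0.0398), against 2.86% of all genes to which it gave an adjusted p. JUNB, JUND, FOSL1 and ETS2 were named after their values were seen. FOS, JUN, ETS1 and RUNX1 did not pass the filter, with mean levels of at most 1.62 CPM.

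Of 17 genes of upstream cytokines, growth factors and receptors, 0 were higher and 2 lower at an unadjusted p under 0.05. Of all genes, 8.08% and 8.37% were, and the median of the 17 was -0.13. TGFBR2, the type II receptor for TGF-beta (chromosome 3, 30606502 to 30694142), was at 25.5 ± 4.09 and 18.3 ± 2.98 CPM without overlap, or -0.48 ± 0.16 (edgeR adjusted p = 0.154). Groups free of overlap and lower were thus found for 1 of the 17, against 1.98% of all genes. TNFRSF1A, the main TNF receptor, was at 245 ± 33.8 and 183 ± 64.0 CPM, or -0.42, which was -0.28 without stretch 2. IL1B, which encodes an inducer of MMP1 in fibroblasts, and IL6 were at -0.25 and -0.13 with unadjusted p of 0.410 and 0.577 in edgeR. Both were picked once the values were known. Of 13 genes of collagen substrates and collagen turnover, 5 had estimates above 0 and 8 below, with a median of -0.061. At an unadjusted p under 0.05, 3 were higher (FN1, MRC2 and COL1A1) and 1 lower (the cathepsin gene CTSK, at -0.35), with adjusted p of 0.252 to 0.301 in edgeR. Over all genes tested, 8.08% were higher and 8.37% lower at that unadjusted p. FN1, the fibronectin gene and an MMP substrate, was at 0.30 ± 0.12. MRC2, the receptor by which fibroblasts take up cleaved collagen (chromosome 17, 62627401 to 62693597), was at 312 ± 51.0 and 377 ± 22.3 CPM, or 0.27 ± 0.11 (edgeR adjusted p = 0.261). COL1A1, the type I collagen chain that MMP1 and MMP14 cleave, was at 0.22. COL1A1 and CTSK were named with their values known.

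**Figure D5:**
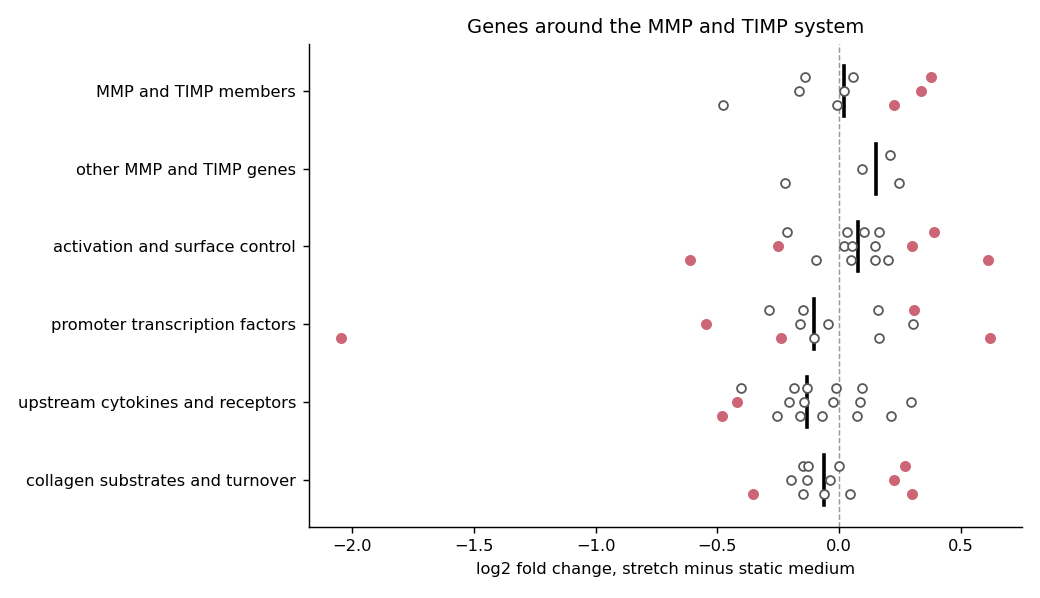
Log2 fold change (horizontal axis) of the tested genes of each list, 1 point a gene, filled red where the unadjusted p in edgeR is under 0.05, with a black line at the list's median. The medians lie between -0.13 and 0.15, and in each list but the upstream cytokines and receptors and the 2 family lists red points lie on both sides of 0.

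For the 3 members with the smallest p-values, the tested genes with the most similar log2 CPM over the 10 libraries were listed as a description. Among these were TOP3B and HNRNPF for MMP1 (Pearson's r of 0.92 and 0.90), TXNRD2, ZNF592 and DEAF1 for MMP14 (0.975, 0.975 and 0.97) and LYPLA2, TSPAN14 and HEXIM1 for TIMP3 (0.98, 0.98 and 0.96). The points share their libraries, and the highest of 10967 correlations is high by selection.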

How the data were processed

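The data are 10 MRC5 transcriptome libraries. Per the labels' protocols, Trizol-extracted RNA went into an Ion AmpliSeq whole-transcriptome amplicon assay. No molecular identifiers are named, and floors reflect counting error alone. The tools fastp 0.20.1 and Salmon 1.9 and the build hg38/GRCh38 appear in the submitters' processing notes. How each was used, the annotation, strand and any rounding: not given in the sources used here. Deposited by the authors were unscaled counts, whole numbers for each Ensembl gene, and columns were matched through the number in each title. Symbols were found for 13831 of 14054 identifiers, and positions are from GENCODE on GRCh38.

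The test was that of edgeR 4.0.16 in R 4.3.3 (filterByExpr, minimum count 10 and minimum total 15, TMM, quasi-likelihood, stretch minus static, Benjamini-Hochberg over 10968 genes, threshold 0.05) and checked on simulated data. Log2 CPM and ratios use a prior count of 2. Ratios were tested by exact permutation in Python 3.11.15. DESeq2 1.42.0, limma-voom (limma 3.58.1), other scalings and filters, the title number as covariate and each library left out were alternatives. Title numbers alternate between the groups and are not shared, so they do not settle whether libraries were paired. The tests treated them as unpaired. Members and lists were chosen with earlier results of these data known. Besides the members, the text names analysed family genes, the 2 smallest p-values of each list and, for 3 members, the 3 most similar genes, of which 1 is not reported here. Further list genes were named after their values were seen, as the text says at each.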

Additional observations from a re-analysis of the deposited data

Results flagged for a closer look

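In each group of 5 libraries, the gap between an outermost library and its neighbour was divided by the group's range and set against Dixon's 95% critical value of 0.71. Of 52 such groups 5 exceeded it, where chance gives about 1 in 20. The groups were not independent, since the ratios reuse the counts of the genes, and VIM was the only gene taken from outside the family. The 2 shares are therefore not strictly comparable. MMP19 was at 17.8 CPM in static 3 against 10.6 to 11.4 CPM in the other static libraries. TIMP1 was at 4491 CPM in stretch 6 against 3497 to 3657 CPM in the other stretch libraries. MMP15 was at 16.1 CPM in static 7 against 21.4 to 23.2 CPM, and MMP23B at 0.226 CPM in stretch 2, which is 1 count, against 1.16 to 1.54 CPM. VIM was at 1579.7 CPM in stretch 2 against 4091 to 4328 CPM.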

How the results depend on the processing

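The number of MMP and TIMP genes past the threshold was 0 under each of 19 alternatives. A threshold of 0.1 was applied to the edgeR fit only, and MMP1 had an adjusted p of 0.0713 in DESeq2. DESeq2 gave no adjusted p to MMP10 and MMP11, and a filter of 50 counts in 5 libraries removed both. Over all genes the count was 269 with DESeq2 (126 higher, 143 lower), 1 with limma-voom, 61 at an adjusted p under 0.1, and 0 to 39 with a library left out, where 39 came without stretch 4. MMP1, MMP11, MMP14, TIMP1, TIMP2 and TIMP3 kept their direction in each of their alternatives, with MMP1 at 0.30 to 0.46 and TIMP3 at 0.22 (without static 7) to 0.42 (without static 1). Estimates near 0 changed sign: MMP10 was 0.024 with limma-voom, 0.0093 with the title number as covariate and -0.16 to 0.11 with a library left out. MMP2 ran from -0.045 to 0.10, MMP17 from -0.020 to 0.27 and MMP19 from -0.22 to 0.0050 with a library left out. Among ratios, MMP2 to TIMP2 was 0.058 by medians and -0.13 to 0.022 with a library left out, MMP10 to TIMP1 -0.040 to 0.28 and MMP14 to TIMP2 0.13 to 0.19, the last past the threshold only without stretch 4. The causes were not tested. With 11 to 32 counts of MMP10 in a library, depth limits what can be seen of it.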
